A study of Mus musculus with 12 samples.

Results

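The genes of glycolysis, glycogen turnover and the hypoxia response were read in mouse progenitor B cells that had lost Sox4 or carried HA-Sox4 in its absence. Sox4 belongs to the SoxC transcription factors. The list held 44 genes of these pathways. Of these, 42 had an array probe annotated to a single gene, and 37 had one with a detection p-value under 0.05 on at least 3 of the 12 arrays; these 37 are the members described here. The same rule kept 10259 of the 19057 genes with a probe. Each member was represented by its brightest such probe. Slc16a1, a lactate transporter gene, just met the rule with 3 arrays, and Eno2, an enolase gene, just missed it with 2. The other listed genes below the rule were Pfkfb3 (0 arrays), Bnip3 (1), P4ha2 (1) and Pgm2 (0). No probe was named here for Hk2 or Gpi1. Eno1, the enolase gene, was read by a probe annotated to its near-identical copy Eno1b, and signal of the pair cannot be separated.

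Total RNA was read on 12 Illumina bead arrays, 3 for each of 4 groups, and all cells came from embryonic fetal liver of C57BL/6 mice. The loss experiment used cells not labelled as immortalized, called primary here, and compared Sox4fl/fl cells, labelled with floxed Sox4 alleles and no Cre, with Sox4fl/fl SE-Cre cells, which also carried the SE-Cre recombinase. The gain experiment used p190 Bcr-Abl, a tyrosine kinase fusion of leukaemia, to immortalize SE-Cre cells, and compared those labelled HA with those labelled HA-Sox4. Both gain groups therefore share the floxed and SE-Cre alleles and the fusion, and no group had SE-Cre with an intact Sox4 gene. RNA was isolated from progenitor B cells over 95% pure, per the labels' protocols. The labels give 3 replicates a group but not whether these were separate animals or cultures, nor whether HA and HA-Sox4 cells were derived from the same line, so the p-values rest on the spread between these samples alone, and that spread may be technical. Expression is given as log2 normalized intensity, a difference is SE-Cre minus Sox4fl/fl or HA-Sox4 minus HA, and a gene passed the test where its limma p-value, Benjamini-Hochberg adjusted over all probes tested, was under 0.05. The experiments were normalized separately, so levels are not compared across them unless a joint normalization is named.

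Glycolysis splits glucose into pyruvate through a chain of cytosolic enzymes, and cells fill it through glucose transporters, drain it as lactate or draw on stored glycogen for its substrate. Several of its enzymes exist as isoforms from different genes with unlike tissue patterns and regulation. The oxygen-labile factor HIF-1α, marked for destruction by the prolyl hydroxylases of the Egln family and the ubiquitin ligase component Vhl, induces many of these genes when oxygen is scarce, and activated lymphocytes and leukaemia cells are known for heavy use of the pathway.

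Median intensity lay between 83.4 and 90.2 on the loss arrays and between 115 and 139 on the gain arrays, and 36.1% to 40% of probes were detected on each array. The brighter of 2 Sox4 probes fell from 10.61 ± 0.06 (SD, n = 3) in Sox4fl/fl cells to 4.50 ± 0.21 in SE-Cre cells (adjusted p = 3.64e-10). It was not detected on any HA array and was detected on all 3 HA-Sox4 arrays at 5.47 ± 0.43, at least 1.18-fold higher (adjusted p = 0.0326). The probe entered the gain test through those HA-Sox4 arrays alone, which favours a difference, so that p-value is weak support. The dimmer Sox4 probe, which was not tested, reached detection on 2 Sox4fl/fl arrays (group mean 4.75 ± 0.38) and on none of the 9 arrays of other groups, and its HA and HA-Sox4 arrays overlapped (4.80 ± 0.24 and 4.73 ± 0.04). The labels do not say whether the introduced HA-Sox4 sequence includes that of either probe. Of 6 B lineage genes with a probe, 5 were detected on every Sox4fl/fl array and 6 on every array of the other groups, with Pax5 the one not detected in Sox4fl/fl cells. None of 5 erythroid genes, 6 hepatocyte genes or 5 T and NK cell genes was detected on all arrays of any group, and Alb, Afp, Hba-a1 and Cd3e were detected on none. Of 7 myeloid genes only Lyz2 was detected on all arrays, and the summed myeloid signal ranged from 211 to 249 in Sox4fl/fl, 349 to 476 in SE-Cre, 414 to 471 in HA and 177 to 209 in HA-Sox4 cells. Of 5 mast cell and megakaryocyte genes, Gp9 was detected on all arrays and Pf4 on none. Mcpt8 was detected in HA cells alone, and Itga2b and Cpa3 on some SE-Cre arrays alone. The list's summed signal was 135 to 142 in Sox4fl/fl, 132 to 143 in SE-Cre, 183 to 232 in HA and 120 to 127 in HA-Sox4 cells. The part of these cells in the differences below was not tested, and in bulk RNA fewer cells of a type and less RNA per cell cannot be told apart.

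On loss of Sox4, 12 of the 33 members tested passed the test, 7 higher and 5 lower in SE-Cre cells, which is 36.4%. Of all probes tested 15.3% passed, and of all genes 16.3% (7.39% higher and 8.94% lower). On gain, 20 of 36 members passed, 11 higher and 9 lower in HA-Sox4 cells, which is 55.6%, against 41.2% of probes and 44.1% of genes (21.4% higher and 22.7% lower). Slc16a3, Egln3 and Pygl entered the gain test through the arrays of a single group, an entry that favours a difference. On loss no member was of that kind. Among probes detected in both groups, a filter chosen after seeing the data, 17 of 33 members passed on gain (51.5%, against 41.5% of genes). Over all members tested the median difference was 0.114 on loss and 0.006 on gain, beside 0.023 and -0.045 over all genes. Arrays of opposite groups did not overlap for 15 of 33 members on loss (45.5%, against 34.8% of all genes) and for 25 of 36 on gain (69.4%, against 57.7%). Where the arrays were only scaled to the same median, without quantile normalization, the split of all probes past the test moved from 1148 higher and 1368 lower to 719 and 1498 on loss, and from 3261 and 3957 to 3196 and 2552 on gain. The members' split under that scaling was 6 higher and 5 lower on loss and 11 and 8 on gain, and no member that passed changed its sign under any alternative run.

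**Figure D1:**
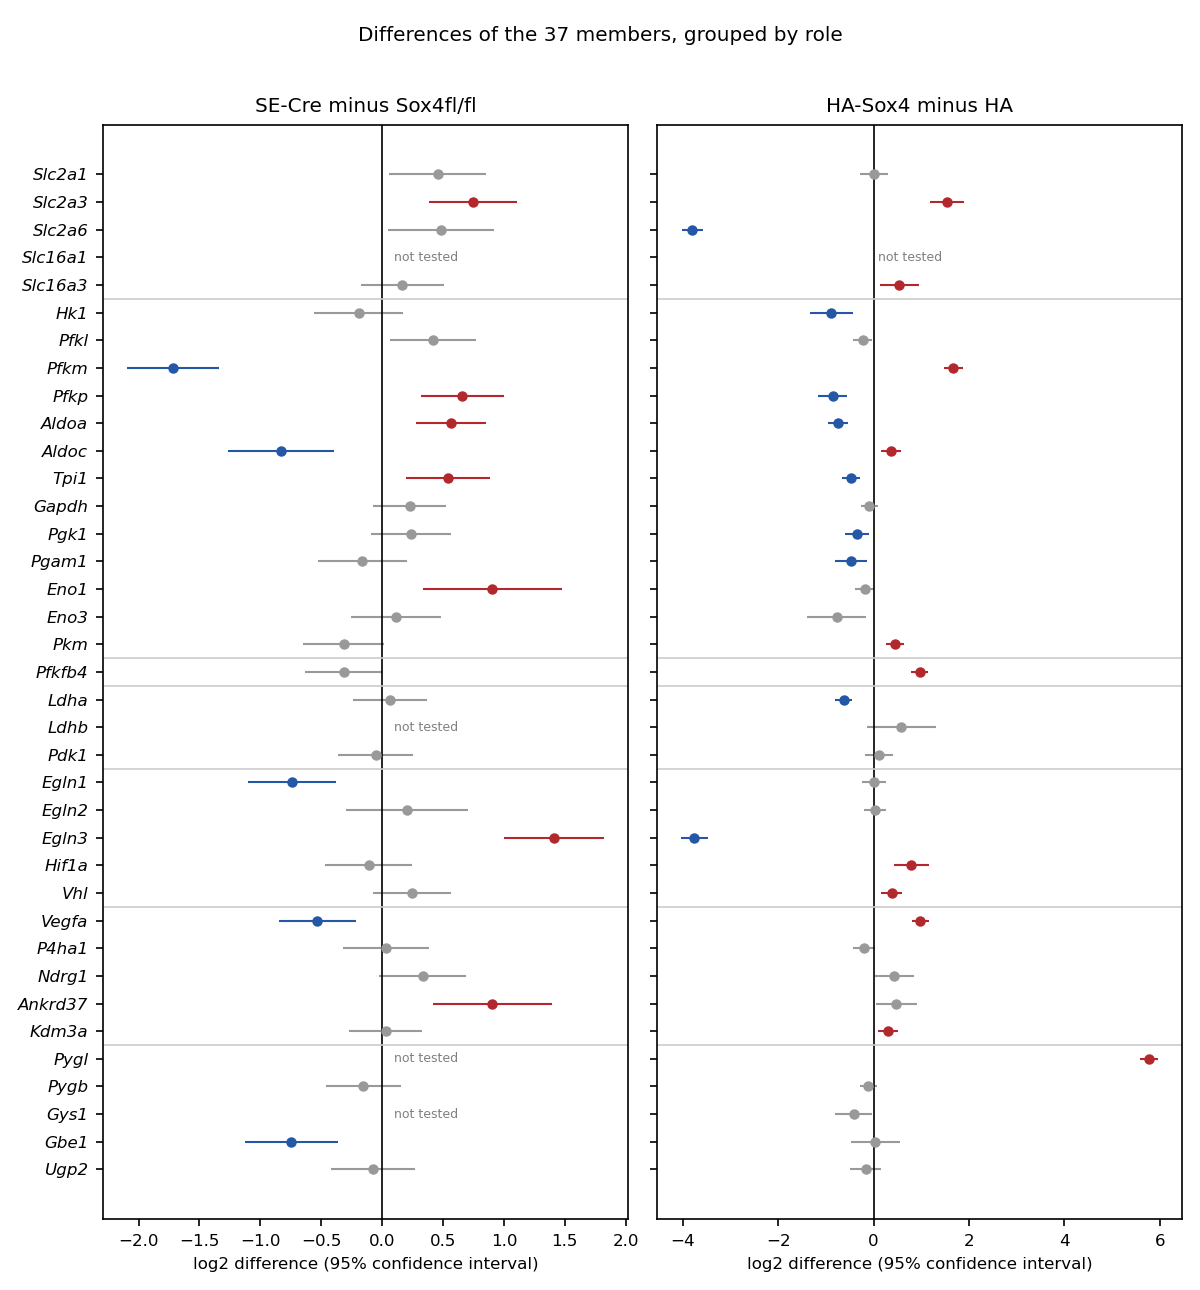
Log2 differences of the 37 members on loss (left, SE-Cre minus Sox4fl/fl) and gain (right, HA-Sox4 minus HA), points with 95% confidence intervals, grouped from top to bottom into transporters, glycolytic enzymes, Pfkfb4, the fate of pyruvate, oxygen sensing, hypoxia targets and glycogen; the horizontal scales differ. Red members passed the test as higher (7 and 11), blue as lower (5 and 9) and grey did not pass; Slc16a1, Ldhb, Pygl and Gys1 were not tested where marked.

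The 3 members with the largest differences of all were Pygl, Slc2a6 and Egln3, on gain, and each has a single annotated start site. Their promoters are shown for that reason, as the 250 bases before the start site in the sense of the gene, from RefSeq on build GRCm38.p6. Capitals mark ACGTG and GCGTG and their reverse complements, the core letters of a hypoxia response element, searched on both strands; ACGTG also lies within the E-box CACGTG. All 3 lie on the minus strand, Pygl at chr12:70227684-70227933, Slc2a6 at chr2:27027999-27028248 and Egln3 at chr12:54203875-54204124.
Pygl: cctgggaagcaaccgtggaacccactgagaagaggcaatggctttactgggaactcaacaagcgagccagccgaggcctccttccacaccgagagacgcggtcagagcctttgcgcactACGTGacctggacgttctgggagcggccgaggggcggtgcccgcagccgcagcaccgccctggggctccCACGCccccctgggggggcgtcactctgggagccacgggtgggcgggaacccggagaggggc
Slc2a6: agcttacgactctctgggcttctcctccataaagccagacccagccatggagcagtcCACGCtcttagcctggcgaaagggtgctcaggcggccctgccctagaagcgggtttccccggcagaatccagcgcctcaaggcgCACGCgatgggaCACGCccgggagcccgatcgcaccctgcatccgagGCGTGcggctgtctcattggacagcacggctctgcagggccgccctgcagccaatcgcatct
Egln3: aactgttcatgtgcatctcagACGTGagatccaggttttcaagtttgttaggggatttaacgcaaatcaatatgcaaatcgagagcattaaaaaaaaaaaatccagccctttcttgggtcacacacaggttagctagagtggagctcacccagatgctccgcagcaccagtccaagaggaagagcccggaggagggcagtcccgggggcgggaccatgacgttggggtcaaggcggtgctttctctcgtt
The Pygl window held 2 matches, the Slc2a6 window 4 and the Egln3 window 1. RefSeq windows were found for 42 of the listed genes, and 36 of them (85.7%) held at least 1 match, against 11226 of 27025 genes (41.5%) and 38.6% of single windows in the whole table. Members that passed on gain held a match in 17 of 19 genes and those that did not in 13 of 15, so the letters were about as common in both. For loss it was 9 of 11 genes that passed and 19 of 20 that did not. The Sox core letters ACAAAG and ACAATG, on both strands, were found for 5 of the 42 genes (11.9%), against 28.2% of all genes. The listed genes and all genes were not matched for base composition or expression, so these shares cannot be read as a trait of the members. A match is a description of the letters, not a binding site.

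Among the transporters, Slc2a3 rose on both loss and gain, and Slc2a6 fell 13.9-fold on gain. Slc2a3 encodes GLUT3, a high-affinity glucose transporter. Its level was 5.66, 5.67 and 5.22 on the Sox4fl/fl arrays and 6.38, 6.07 and 6.35 on the SE-Cre arrays, a difference of 0.75 (SE 0.17, 1.68-fold higher, adjusted p = 0.00887). On gain it was 5.63, 6.06 and 5.65 in HA and 7.12, 7.37 and 7.46 in HA-Sox4 cells, a difference of 1.54 (SE 0.15, 2.91-fold higher, adjusted p = 0.000244). The groups did not overlap in either experiment, and Slc2a3 was the only member past the test with the same sign in both. Slc2a6 encodes GLUT6, a glucose transporter family member found mainly on lysosomes. In the primary cells it was detected on 2 of 3 Sox4fl/fl and on 3 of 3 SE-Cre arrays, at 4.89, 4.45 and 4.62 in Sox4fl/fl and 4.73, 5.16 and 5.52 in SE-Cre cells (difference 0.49, 95% confidence interval 0.05 to 0.92, adjusted p = 0.130). In the immortalized cells it was 10.06, 9.97 and 9.99 in HA and 6.11, 6.14 and 6.37 in HA-Sox4 cells, a difference of -3.80 (SE 0.10, 13.9-fold lower, adjusted p = 4.42e-07). Every HA array thus lay far above every HA-Sox4 array. Slc16a3 encodes MCT4, which exports lactate. It was detected on no HA array (4.85, 4.61 and 5.07) and on all 3 HA-Sox4 arrays (5.19, 5.25 and 5.70), at least 1.10-fold higher (adjusted p = 0.0434). It thus entered the test and is counted as higher through dim HA-Sox4 arrays alone, so that p-value is weak support. Without HA replicate 1 or 2 the adjusted p was 0.0905 to 0.114, and with no detection filter Slc16a3 also missed the threshold. On loss Slc16a3 was 4.42, 4.54 and 4.63 in Sox4fl/fl and 4.45, 4.75 and 4.90 in SE-Cre cells, which overlapped (difference 0.17, adjusted p = 0.534). Slc2a1, which encodes the widespread transporter GLUT1, did not pass in either experiment, with differences of 0.46 (adjusted p = 0.124) and 0.01 (95% confidence interval -0.28 to 0.29).

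**Figure D2:**
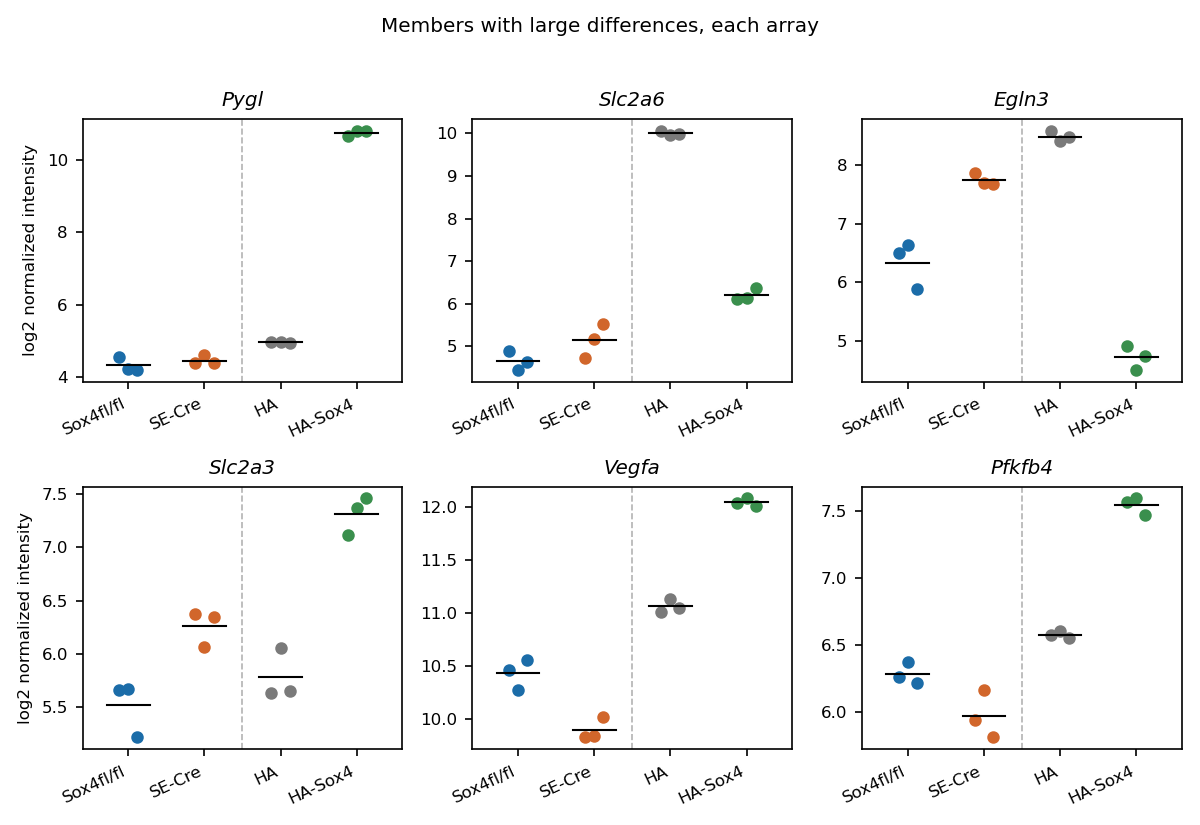
Log2 normalized intensity of Pygl, Slc2a6, Egln3, Slc2a3, Vegfa and Pfkfb4 on each array, as points by group with a line at the mean of 3 arrays; the dashed line parts the loss from the gain experiment, which were normalized separately. HA-Sox4 arrays lie between 10.66 and 10.79 for Pygl, and between 4.51 and 4.92 for Egln3, where all 3 were not detected.

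At the phosphofructokinase step, which commits glucose to glycolysis, the muscle-type and platelet-type genes moved in opposite directions in both experiments. Pfkm, the muscle-type gene, was 7.32, 7.29 and 7.09 in Sox4fl/fl cells and 5.79, 5.61 and 5.16 in SE-Cre cells, a difference of -1.72 (SE 0.17, 3.29-fold lower, adjusted p = 2.54e-05). On gain it was 7.19, 7.32 and 7.36 in HA and 8.98, 9.01 and 8.89 in HA-Sox4 cells, a difference of 1.67 (SE 0.09, 3.19-fold higher, adjusted p = 1.08e-05). Sox4fl/fl and HA-Sox4 arrays were the higher ones throughout. A second Pfkm probe gave -0.91 (adjusted p = 0.000607) and 1.54 (adjusted p = 0.00024), and a dim further one -0.03 on loss (adjusted p = 0.929). Pfkp, the platelet-type gene, ran the other way. It was 7.48, 7.07 and 7.26 in Sox4fl/fl and 7.95, 7.76 and 8.06 in SE-Cre cells, a difference of 0.66 (SE 0.16, adjusted p = 0.0137). In HA cells it was 8.04, 7.83 and 8.17 and in HA-Sox4 cells 7.36, 7.06 and 7.05, a difference of -0.86 (SE 0.13, adjusted p = 0.0019). Groups did not overlap in either experiment, although without Sox4fl/fl replicate 2 the adjusted p on loss was 0.0702, and a dimmer probe gave 0.35 and -0.63 without passing (adjusted p = 0.198 and 0.134). Pfkl, the liver-type gene, had differences of the same signs as Pfkp, 0.42 and -0.23, and did not pass (adjusted p = 0.108 and 0.062).

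Hexokinase and the regulator of phosphofructokinase were past the test on gain. Hk1, which encodes the hexokinase that phosphorylates glucose on entry, was 6.57, 6.30 and 6.38 in HA and 5.12, 5.58 and 5.89 in HA-Sox4 cells, a difference of -0.89 (SE 0.19, 1.85-fold lower, adjusted p = 0.00962). All HA arrays lay above all HA-Sox4 arrays, while on loss the Sox4fl/fl arrays (6.06, 5.91 and 5.86) and SE-Cre arrays (5.73, 6.06 and 5.45) overlapped (difference -0.19, adjusted p = 0.505). Pfkfb4 makes and breaks down fructose 2,6-bisphosphate, an activator of phosphofructokinase. It was 6.57, 6.60 and 6.55 in HA and 7.56, 7.59 and 7.47 in HA-Sox4 cells, a difference of 0.97 (SE 0.08, 1.96-fold higher, adjusted p = 9.72e-05). On loss its SE-Cre arrays (5.94, 6.16 and 5.81) all lay below the Sox4fl/fl arrays (6.26, 6.37 and 6.21), at a difference of -0.31 that did not pass (adjusted p = 0.185).

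The aldolase genes also split. Aldoa, the muscle-type aldolase that cleaves fructose 1,6-bisphosphate, was 8.91, 8.84 and 8.81 in Sox4fl/fl and 9.43, 9.37 and 9.45 in SE-Cre cells, a difference of 0.57 (SE 0.13, adjusted p = 0.0125). On gain it was 11.35, 11.45 and 11.26 in HA and 10.63, 10.65 and 10.55 in HA-Sox4 cells, a difference of -0.74 (SE 0.09, adjusted p = 0.000582). SE-Cre and HA arrays were the higher ones throughout. Aldoc, the brain-type aldolase gene, ran against it. Its level was 5.42, 5.72 and 5.65 in Sox4fl/fl and 4.52, 4.52 and 5.25 in SE-Cre cells, where it was detected on 1 of 3 arrays, a difference of -0.83 (SE 0.20, adjusted p = 0.014). In HA cells it was 7.20, 7.40 and 7.32 and in HA-Sox4 cells 7.61, 7.74 and 7.66, a difference of 0.37 (SE 0.09, adjusted p = 0.0152). These groups did not overlap either. Leaving out SE-Cre replicate 1 or 2 or Sox4fl/fl replicate 2 or 3 gave Aldoc an adjusted p of 0.0503 to 0.0602 on loss, and fitting all 12 arrays together gave 0.249 on gain.

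**Figure D3:**
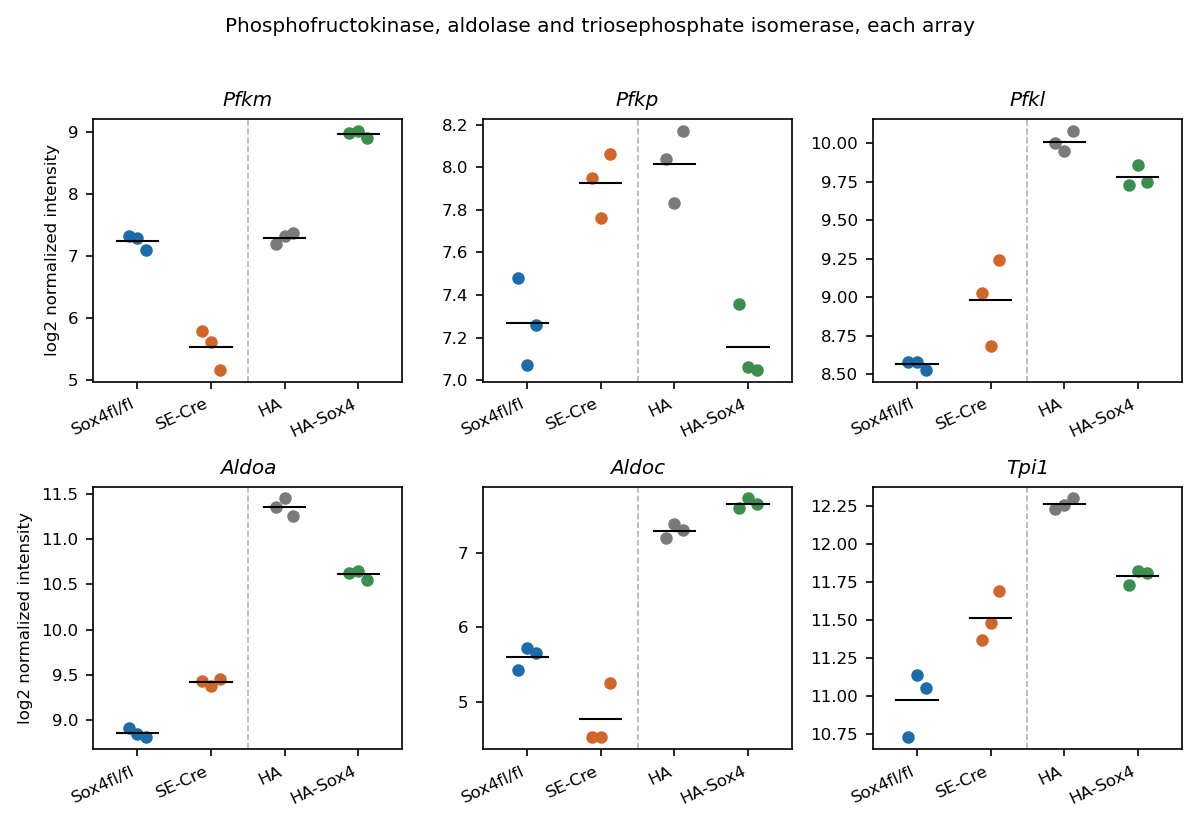
Log2 normalized intensity of Pfkm, Pfkp, Pfkl, Aldoa, Aldoc and Tpi1 on each array, as points by group with a line at the mean of 3 arrays; the dashed line parts the separately normalized loss and gain experiments. Pfkm and Aldoc are lower in SE-Cre and higher in HA-Sox4 cells than in the group beside them, and Pfkp, Aldoa and Tpi1 are the reverse.

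Further down the chain, triosephosphate isomerase followed the pattern of Aldoa, and most later enzymes passed on gain or not at all. Tpi1, which interconverts the triose phosphates, was 10.73, 11.14 and 11.05 in Sox4fl/fl and 11.37, 11.48 and 11.69 in SE-Cre cells, a difference of 0.54 (SE 0.16, adjusted p = 0.0378). It was 12.23, 12.26 and 12.30 in HA and 11.73, 11.82 and 11.81 in HA-Sox4 cells, a difference of -0.47 (SE 0.08, adjusted p = 0.00263). Its groups did not overlap in either experiment, and of its 3 probes 2 passed in each. With SE-Cre replicate 2 or 3 or Sox4fl/fl replicate 1, 2 or 3 left out its adjusted p on loss was 0.0524 to 0.155. Gapdh, the glyceraldehyde phosphate dehydrogenase gene and a common reference gene, did not pass: it was 12.17, 12.08 and 12.17 in Sox4fl/fl and 12.28, 12.30 and 12.51 in SE-Cre cells (difference 0.22, 95% confidence interval -0.08 to 0.53). On gain it was 13.45, 13.39 and 13.49 in HA and 13.38, 13.34 and 13.35 in HA-Sox4 cells (difference -0.09, 95% confidence interval -0.27 to 0.09). Its arrays did not overlap between groups on either side, with the signs of Aldoa and Tpi1, at sizes that missed the test.

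Of the later enzymes, Pgk1 and Pgam1 fell and Pkm rose on gain, and Eno1 rose on loss. Pgk1, phosphoglycerate kinase, the first step that makes ATP, was 13.00, 13.08 and 13.07 in HA and 12.83, 12.51 and 12.76 in HA-Sox4 cells, a difference of -0.35 (SE 0.10, adjusted p = 0.0328). Pgam1, phosphoglycerate mutase, was 8.86, 8.65 and 9.04 in HA and 8.25, 8.27 and 8.62 in HA-Sox4 cells, a difference of -0.47 (SE 0.15, adjusted p = 0.0372), and its second probe gave -0.37 (adjusted p = 0.0397). All HA arrays lay above all HA-Sox4 arrays for both genes. Neither call withstood the loss of single arrays: without HA replicate 1, 2 or 3 or HA-Sox4 replicate 2 or 3 the adjusted p was 0.0581 to 0.0823 for Pgk1, and without HA replicate 1 or 3 or HA-Sox4 replicate 1 or 2 it was 0.0847 to 0.109 for Pgam1. On loss Pgk1 was 11.23, 11.17 and 11.21 in Sox4fl/fl and 11.61, 11.52 and 11.19 in SE-Cre cells (difference 0.24, adjusted p = 0.343), and the groups overlapped. Pgam1 overlapped too, at 7.56, 7.27 and 7.48 in Sox4fl/fl and 7.56, 7.26 and 7.0 in SE-Cre cells (difference -0.16, adjusted p = 0.581). Its second probe did not overlap on loss and was lower in SE-Cre cells, without passing (difference -0.57, adjusted p = 0.0622). Eno1 was 7.12, 6.16 and 6.09 in Sox4fl/fl and 7.04, 7.28 and 7.77 in SE-Cre cells, a difference of 0.90 (SE 0.26, adjusted p = 0.0364). Sox4fl/fl replicate 1 lay within the SE-Cre range, and with SE-Cre replicate 2 or 3 or Sox4fl/fl replicate 2 or 3 left out the adjusted p was 0.0753 to 0.141. On gain Eno1 was 9.73, 9.67 and 9.68 in HA and 9.46, 9.44 and 9.63 in HA-Sox4 cells, which did not overlap but did not pass (difference -0.18, adjusted p = 0.129), and Eno3, the muscle-type enolase, differed by -0.77 (adjusted p = 0.0525). Pkm, pyruvate kinase, the last enzyme of the chain, was 12.59, 12.68 and 12.73 in HA and 13.08, 13.13 and 13.15 in HA-Sox4 cells, a difference of 0.45 (SE 0.08, 1.37-fold higher, adjusted p = 0.00384, and 0.051 with arrays scaled to a common median). Pkm was thus higher in HA-Sox4 cells on every array, the reverse of Pgk1 and Pgam1 upstream of it. On loss it was 11.69, 12.03 and 11.82 in Sox4fl/fl and 11.70, 11.46 and 11.43 in SE-Cre cells, where the groups overlapped (difference -0.32, adjusted p = 0.194).

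At the fate of pyruvate, the lactate dehydrogenase gene fell on gain. Ldha, which encodes the subunit that favours lactate formation, was 13.43, 13.38 and 13.34 in HA and 12.79, 12.78 and 12.71 in HA-Sox4 cells, a difference of -0.62 (SE 0.08, 1.54-fold lower, adjusted p = 0.00077). The groups were well apart. On loss it was 12.08, 12.25 and 12.16 in Sox4fl/fl and 12.08, 12.30 and 12.30 in SE-Cre cells, which overlapped (difference 0.06, 95% confidence interval -0.24 to 0.37). Ldhb, the other subunit, was detected on 7 of 12 arrays and not tested on loss, and on gain it did not pass (difference 0.58, adjusted p = 0.168). Pdk1, a kinase that keeps pyruvate from the mitochondrial dehydrogenase, passed in neither experiment (-0.05 and 0.12).

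In oxygen sensing, Egln3 showed opposite and large differences. It encodes PHD3, a HIF prolyl hydroxylase whose gene is itself induced by hypoxia. Egln3 was 6.49, 6.63 and 5.88 in Sox4fl/fl and 7.87, 7.69 and 7.68 in SE-Cre cells, a difference of 1.41 (SE 0.19, 2.66-fold higher, adjusted p = 0.000265). In HA cells it was 8.58, 8.40 and 8.47, and in HA-Sox4 cells 4.92, 4.51 and 4.75 and detected on none of the 3 arrays, at least 10.3-fold lower (difference -3.76, adjusted p = 1.22e-06). SE-Cre and HA arrays were again the higher ones throughout. A dimmer Egln3 probe gave 0.29 on loss (adjusted p = 0.241) and at least 1.21-fold lower on gain (-0.63, adjusted p = 0.00438). Both Egln3 probes entered the gain test through the HA arrays alone, which favours a difference, so their p-values there are weak support. Egln1, which encodes PHD2, the main hydroxylase of HIF-1α in most cells, was 5.44, 5.65 and 5.98 in Sox4fl/fl and 4.84, 4.89 and 5.12 in SE-Cre cells, a difference of -0.74 (SE 0.17, 1.67-fold lower, adjusted p = 0.00947). Its groups did not overlap on loss, and on gain they did, at 6.03, 6.16 and 5.88 in HA and 6.07, 5.89 and 6.14 in HA-Sox4 cells (difference 0.01, 95% confidence interval -0.25 to 0.26). A second Egln1 probe gave -0.60 on loss (adjusted p = 0.066). Egln2, which encodes PHD1, passed in neither experiment (0.20 and 0.03).

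Hif1a, which encodes the HIF-1α subunit, was 6.80, 6.83 and 6.57 in HA and 7.85, 7.32 and 7.40 in HA-Sox4 cells, a difference of 0.79 (SE 0.16, 1.73-fold higher, adjusted p = 0.00635). Vhl was 8.80, 8.72 and 8.87 in HA and 9.06, 9.30 and 9.16 in HA-Sox4 cells, a difference of 0.38 (SE 0.09, 1.30-fold higher, adjusted p = 0.0169). For both genes every HA-Sox4 array lay above every HA array, and for Vhl the adjusted p was 0.051 to 0.053 without HA replicate 2 or HA-Sox4 replicate 2. On loss neither passed and the groups overlapped. Hif1a was 6.27, 5.72 and 6.13 in Sox4fl/fl and 5.83, 5.97 and 6.00 in SE-Cre cells (difference -0.11, adjusted p = 0.721). Vhl was 7.15, 6.95 and 6.96 in Sox4fl/fl and 7.19, 7.15 and 7.45 in SE-Cre cells (difference 0.24, adjusted p = 0.312). HIF-1α is controlled largely at the level of the protein, which these arrays do not read.

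Of the hypoxia targets, Vegfa, the vascular growth factor gene, was lower in SE-Cre and higher in HA-Sox4 cells. It was 10.46, 10.27 and 10.56 in Sox4fl/fl and 9.83, 9.84 and 10.02 in SE-Cre cells, a difference of -0.53 (SE 0.15, 1.45-fold lower, adjusted p = 0.0269). In HA cells it was 11.01, 11.13 and 11.05 and in HA-Sox4 cells 12.04, 12.08 and 12.01, a difference of 0.98 (SE 0.08, 1.98-fold higher, adjusted p = 9.1e-05). No arrays overlapped between groups, and a second probe gave -0.53 (adjusted p = 0.0312) and 0.95 (adjusted p = 0.000277). On loss the adjusted p was 0.0763 to 0.104 with SE-Cre replicate 1 or 2 or Sox4fl/fl replicate 1 or 3 left out. Ankrd37, an ankyrin repeat gene induced by HIF-1, was 5.73, 4.98 and 5.54 in Sox4fl/fl and 6.75, 6.21 and 6.01 in SE-Cre cells, a difference of 0.91 (SE 0.22, 1.87-fold higher, adjusted p = 0.0166). It was above the Sox4fl/fl range on each SE-Cre array, the reverse of Vegfa. With SE-Cre replicate 1 or Sox4fl/fl replicate 2 left out its adjusted p was 0.0651 to 0.0762, and on gain it was 6.95, 7.31 and 6.64 in HA and 7.63, 7.45 and 7.25 in HA-Sox4 cells (difference 0.48, adjusted p = 0.0758). Kdm3a, a histone H3 lysine 9 demethylase gene, was 10.04, 10.24 and 10.06 in HA and 10.41, 10.37 and 10.47 in HA-Sox4 cells, a difference of 0.30 (SE 0.09, adjusted p = 0.0323), and all 3 of its tested probes passed. The groups did not overlap; leaving out HA replicate 1 or 3 or any HA-Sox4 array gave 0.057 to 0.0925. On loss Kdm3a was 9.16, 9.24 and 9.19 in Sox4fl/fl and 9.33, 9.25 and 9.10 in SE-Cre cells, which overlapped (difference 0.03, adjusted p = 0.912). P4ha1, a collagen prolyl hydroxylase subunit gene, and Ndrg1, a stress-response gene, passed in neither experiment (0.03 and -0.20, and 0.33 and 0.43).

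Glycogen was represented by the largest rise among the members. Pygl encodes the liver-type glycogen phosphorylase, which releases glucose 1-phosphate from glycogen. Its probe was detected on no HA array (4.98, 4.97 and 4.95) and on all 3 HA-Sox4 arrays (10.66, 10.79 and 10.79), at least 45.5-fold higher (adjusted p = 8.61e-08). The probe entered the test through the HA-Sox4 arrays alone, which favours a difference, so that p-value is weak support. The groups were far apart, with little spread within either. A second Pygl probe, detected on all arrays of both groups, gave 3.13 (adjusted p = 4.85e-06). In primary cells Pygl was detected on 1 of 6 arrays (4.55, 4.22 and 4.21 in Sox4fl/fl, 4.39, 4.61 and 4.38 in SE-Cre cells) and was not tested. Sox4fl/fl cells had the brighter Pygl probe detected on 0 of 3 arrays and the other one on 1 of 3. Gbe1, which encodes the glycogen branching enzyme, was 6.14, 5.66 and 5.79 in Sox4fl/fl and 4.96, 5.41 and 4.99 in SE-Cre cells, a difference of -0.75 (SE 0.18, 1.68-fold lower, adjusted p = 0.0128). All SE-Cre arrays lay below the Sox4fl/fl arrays; with SE-Cre replicate 1 or Sox4fl/fl replicate 1 left out the adjusted p was 0.0514 to 0.0643. On gain Gbe1 was 6.93, 6.47 and 6.82 in HA and 7.17, 6.36 and 6.80 in HA-Sox4 cells, which overlapped (difference 0.04, 95% confidence interval -0.48 to 0.55). Pygb, the brain-type phosphorylase gene, and Ugp2, which makes UDP-glucose, passed in neither experiment. Gys1, the muscle-type glycogen synthase gene, was not tested on loss and differed by -0.41 on gain (adjusted p = 0.084).

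Several of these sizes depended on the background correction. Without it all 12 differences past the test on loss and all 20 on gain were smaller, 8 and 9 of them by over 1.5 times. On loss these were Pfkm (-0.94), Aldoc (-0.29), Eno1 (0.57), Slc2a3 (0.35), Egln1 (-0.28), Egln3 (0.92), Ankrd37 (0.42) and Gbe1 (-0.30). On gain they were Pygl (3.77), Egln3 (-1.90), Slc2a3 (0.73), Hk1 (-0.33), Pfkp (-0.56), Aldoc (0.23), Pfkfb4 (0.54), Hif1a (0.46) and Slc16a3 (0.18). Aldoc on loss and Slc16a3 on gain no longer passed (adjusted p = 0.0504 and 0.0556), and the others did. Averaging a gene's probes gave -0.89 for Pfkm and 0.85 for Egln3 on loss, and -2.20 for Egln3 on gain.

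Set side by side, the experiments gave opposite signs for 21 of the 33 members tested in both and the same sign for 12. In both experiments 8 members passed. Of these, 7 had differences of opposite sign: Pfkm, Aldoc and Vegfa were higher in Sox4fl/fl and in HA-Sox4 cells than in the group compared with each, and Pfkp, Aldoa, Tpi1 and Egln3 were lower there. Over 8241 genes tested in both, 763 (9.26%) passed in both with opposite signs and 171 (2.07%) with the same sign. The lean to opposite signs was thus not particular to the members. On loss alone 4 members passed, on gain alone 11, and 10 in neither. Across the 33 members Pearson's r between the differences was -0.49 and Spearman's rho -0.37, given as a description, since the points share arrays. No value over all genes is given here beside these correlations or the 21 of 33.

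**Figure D4:**
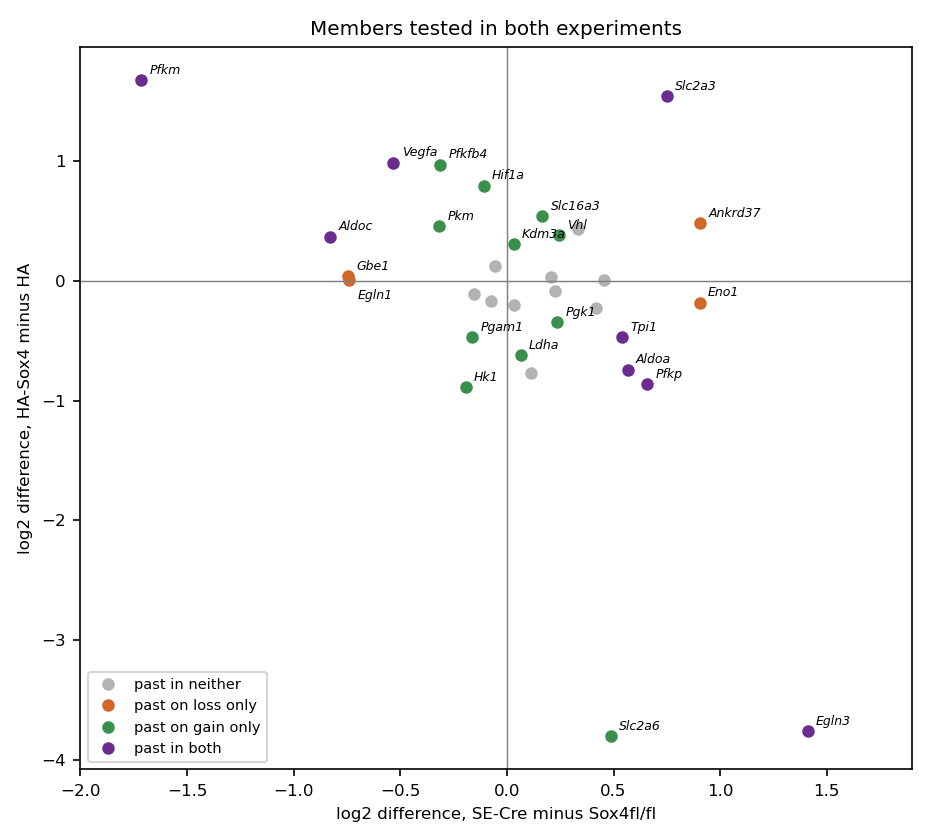
Log2 differences of the 33 members tested in both experiments, loss (SE-Cre minus Sox4fl/fl) on the horizontal and gain (HA-Sox4 minus HA) on the vertical axis, 1 point a member, coloured by where it passed. The 8 purple members passed in both; 7 lie in the upper left or lower right, with opposite signs, and Slc2a3 lies in the upper right.

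The Sox4fl/fl minus SE-Cre difference of the primary cells was compared with the HA-Sox4 minus HA difference of the immortalized cells. All 12 arrays were normalized together for this. They differed for 10 of 37 members, 5 in each direction (27.0%, against 17.6% of probes and 19.9% of genes, 10.8% higher and 9.09% lower). The HA-Sox4 contrast was the higher for Pygl, Slc2a3, Ankrd37, Pfkfb4 and Vhl, and the lower for Slc2a6, Egln3, Hk1, Egln1 and Ldha. Pygl met the detection rule only with the HA-Sox4 arrays, which favours a difference. Among the 13 glycolytic enzymes only Hk1 passed this test. Egln3 was lower in Sox4fl/fl than in SE-Cre cells and in HA-Sox4 than in HA cells (-1.41 and -3.46, the last against arrays where it was not detected), and the gap of -2.05 between these was -0.72 without background correction (adjusted p = 0.000913). The starting levels were also unlike: on that joint scale HA minus primary SE-Cre cells was 3.80 for Slc2a6, 1.64 for Aldoc, 1.13 for Eno1, -2.66 for Ndrg1, -1.59 for Slc2a3 and -1.10 for Pfkp, given without a test because immortalization, culture and array set cannot be told apart.

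**Figure D5:**
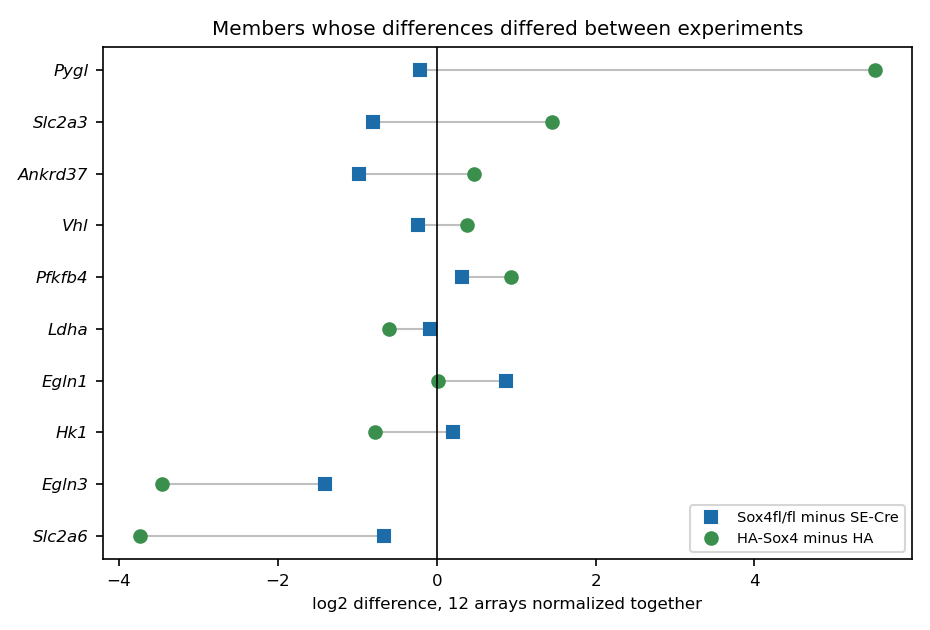
Log2 differences of the 10 members for which the experiments differed, from 12 arrays normalized together: squares are Sox4fl/fl minus SE-Cre, circles are HA-Sox4 minus HA, joined by a line. Pygl and Slc2a6 are near 0 or below 1 unit among primary cells (-0.21 and -0.67) and lie at 5.52 and -3.74 in immortalized cells.

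The neighbouring pathways were read from lists of other genes, whose counts stand beside the 16.3% of all genes that passed on loss and the 44.1% on gain. Of 8 further glycogen genes tested on loss 4 rose (50%) and none fell, among them Gyg1, the glycogenin primer of glycogen (1.36, SE 0.15, adjusted p = 5.85e-05), Pgm1, a phosphoglucomutase (0.73, SE 0.14), and Phkg2, a phosphorylase kinase subunit (0.51, SE 0.14). On gain 2 of 10 rose and 4 fell (60% in all): Gaa, the lysosomal glycogen-degrading glucosidase, rose by 1.30 (SE 0.16), Pgm1 fell by 1.03 (SE 0.08) and Phka2, another kinase subunit, fell by 0.95 (SE 0.17). Pygm, the other gene that rose, was detected on no HA array. It entered the test through the HA-Sox4 arrays alone, which favours a difference. Of 14 further hypoxia targets 1 rose and 1 fell on loss (14.3%), Bhlhe40, a circadian and hypoxia-induced repressor (1.34, SE 0.14), and Plin2, a lipid droplet protein (-0.76, SE 0.18). On gain 5 of 14 rose and 1 fell (42.9%, near the share of all genes), led by Bhlhe40 (2.82, SE 0.10), Mxi1, a MYC antagonist (1.55, SE 0.10), and Narf (0.91, SE 0.09). Car9, among the 5 that rose, likewise entered the gain test through the HA-Sox4 arrays alone. Of 7 partners of the HIF pathway none passed on loss, and Arnt, the HIF-1β subunit, fell by 0.25 on gain (SE 0.08, the only one of 7 past the test, 14.3%).

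In the branches that leave glycolysis the lists were short, and the same shares of all genes stand beside their counts. Of 5 pentose phosphate genes none passed on loss, and on gain 1 rose and 2 fell (60%): Rpe, an epimerase (0.49, SE 0.08), and Pgls, a lactonase (-0.76, SE 0.11), and Tkt, transketolase (-0.29, SE 0.09). At pyruvate entry to mitochondria, Pdha1, the E1 subunit of pyruvate dehydrogenase, fell by 0.87 on loss (SE 0.16) and rose by 1.05 on gain (SE 0.10), and Pdk3, a kinase that inhibits it, rose by 0.57 (SE 0.16) and fell by 0.37 (SE 0.10). These were the 2 of 8 genes past the test on loss (25%); on gain (37.5%) Dlat, the E2 subunit, also passed and fell by 0.60 (SE 0.09). Among 4 other glycolysis enzymes Galt, of galactose use, rose by 0.85 on loss (SE 0.13) and fell by 0.78 on gain (SE 0.12). G6pc3, a glucose 6-phosphatase and the one gluconeogenesis gene tested on loss, rose by 0.62 (SE 0.16) and fell by 1.14 on gain (SE 0.13). Of the regulators of glucose use, 2 of 8 rose on loss (25%), Mtor (1.05, SE 0.15) and Prkaa1, an AMP-activated kinase subunit (0.52, SE 0.16). On gain 2 of 10 rose and 2 fell (40%, near the share of all genes), with Mtor at 0.99 (SE 0.07), Rheb, its activator, at 0.30 (SE 0.07) and Myc at -0.67 (SE 0.08).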

How the data were processed

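Probe intensities that were not normalized were deposited by the authors with a detection p-value for each, per the file headers, beside a table of processed intensities, which served here as an alternative. The submitters' processing notes name R 3.0.1 without a role; the scanner software is not given in the sources used here. From the non-normalized intensities, log2 values were computed in R 4.3.3 by limma 3.58.1 with its function neqc (offset 16, negative controls inferred from the deposited detection p-values), separately for each experiment of 6 arrays. Of 45281 probes, 34885 carried 1 gene symbol, 18 several and 10378 none. Probes detected (p under 0.05) on 3 or more of the 6 arrays were tested with lmFit and eBayes, and all their p-values were adjusted together (Benjamini-Hochberg, threshold 0.05). The comparison between experiments used 1 normalization and 1 fit of the 12 arrays, over probes detected on 3 or more of them, and the brightest such probe stood for a member. Where a group was not detected on any of its 3 arrays, the fold is "at least": its values were first raised, array by array, to the dimmest signal that counted as detected. Arrays number 3 a group, which limits the precision.

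Members, lists and tests were chosen with earlier results of these data known. Values on the arrays of both experiments are given for members past the test on loss or gain. They are also given for Gapdh, Ldha and Pkm, whose probes were the brightest. Other lists are given as counts, with at most 3 genes named by smallest p. Pygm and Car9 are named besides, for their detection. The fits were tested on simulated intensities. Alternatives changed the background correction, the input (the processed table), the detection filter (none, or every array), the scaling (a common median), the eBayes settings (trend and robust), the weights of arrays, the model (replicate number as a block), the probe summary (mean of a gene's probes), the joint or separate normalization and the limit on size (1.5-fold), or left out each array; a filter on probes detected in both groups was added after seeing the data. Slide and scan were not given and not used.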

Additional observations from a re-analysis of the deposited data

Results flagged for a closer look

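The Sox4fl/fl minus SE-Cre difference and the HA-Sox4 minus HA difference, from 12 arrays normalized together, differed for 10 members in limma's test of that difference, adjusted over all probes. The sharpest was Pygl, whose fitted HA-Sox4 contrast exceeded the primary one by 5.73 (adjusted p = 1.46e-09), or by 3.67 without background correction. Its probe was detected on all 3 HA-Sox4 arrays and on just 1 of the other 9, so the value compares signal with background and is no measured size. The probe met the detection rule only with the HA-Sox4 arrays, which favours a difference, so that p-value is weak support. For the glucose transporters Slc2a3 and Slc2a6 the contrasts differed by 2.25 (-0.80 against 1.45, adjusted p = 1.93e-05) and by -3.07 (-0.67 against -3.74, adjusted p = 1.53e-05). For Egln3 they differed by -2.05 (-1.41 against -3.46, adjusted p = 6.41e-05), or by -0.72 without background correction, and the probe was detected on no HA-Sox4 array. Ankrd37 differed by 1.44 (-0.98 against 0.47, adjusted p = 0.0115) and Egln1 by -0.87 (0.87 against 0.01, adjusted p = 0.0144). Hk1 differed by -0.99 (0.21 against -0.78, adjusted p = 0.0167), Ldha by -0.52 (-0.08 against -0.60, adjusted p = 0.0369), Pfkfb4 by 0.62 (0.32 against 0.94, adjusted p = 0.0174) and Vhl by 0.62 (-0.24 against 0.38, adjusted p = 0.0224). Without background correction all 10 differences were smaller and passed, 7 of them by over 1.5 times: beside Pygl and Egln3 these were Slc2a3 (1.07), Ankrd37 (0.76), Hk1 (-0.39), Egln1 (-0.37) and Pfkfb4 (0.32). Primary against immortalized cells, culture and array set cannot be told apart in these differences.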

How the results depend on the processing

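The count of members past the test on loss was 12 and ranged from 7 to 10 with 1 array left out; it was 7 without Sox4fl/fl replicate 2 and 7 with no detection filter, which tests more probes. On gain the count was 20, ranged from 15 to 18 with 1 array left out, and was 12 among changes of at least 1.5-fold. On loss that limit left 9, without Aldoa, Tpi1 and Vegfa. Between experiments it was 10, ranged from 8 to 12 with 1 array left out, and was 9 under that limit. Among probes detected in both groups, an alternative chosen after seeing the data, 12 passed on loss and 17 on gain. Under every alternative that could be run other than the limit on size, 5 of 12 calls on loss (Aldoa, Egln1, Egln3, Pfkm and Slc2a3), 13 of 20 on gain and 7 of 10 between experiments were kept. Those lost between experiments were Ldha (adjusted p up to 0.0901 without 1 array), Vhl (up to 0.0778) and Egln1 (0.0617 with the authors' processed values). On loss, dropping the detection filter gave adjusted p = 0.229 for Eno1, 0.130 for Ankrd37 and 0.0648 for Gbe1. Tpi1 missed the threshold with no detection filter and with scaling to a common median (adjusted p = 0.0744 to 0.0834). Aldoc missed it with no detection filter, no background correction and the authors' processed values (adjusted p = 0.0504 to 0.0965). For Slc16a3 on gain, 5 settings other than left-out arrays gave 0.0556 to 0.0959. With detection on every array, or with single arrays left out, Pygl and Egln3 on gain were in part not testable because too few arrays detected them. The number of all probes past the test on loss, 2516, was 1590, 1536 and 1612 without Sox4fl/fl replicate 1, 2 and 3, and 3978 with all 12 arrays fitted together. The causes were not tested.

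Same-numbered samples deviated together little, with correlations of deviations from the group means of 0.002 to 0.041 on loss and -0.023 to -0.005 on gain. The labels name no pairing, and such correlations cannot exclude a shared animal, culture or preparation. With the replicate number as a block 12 members passed on loss, 19 on gain (18 of them shared with the 20) and 9 between experiments. The block gave an adjusted p of 0.0553 for Ldha between experiments, and Pgk1 and Kdm3a on gain and Vhl between experiments also missed the threshold.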
